A study of Mus musculus with 12 samples.

Results

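Complement is a protein cascade of the blood and tissues, and its components are made not only by the liver but also by fibroblasts and macrophages. The genes described here are 8 components and regulators of this cascade, C1ra, C1s1, C2, C3, C4b, Cfb, Serping1 and Cd55, which were taken by their mouse symbols from the 37991 gene identifiers in the count tables. Primary mouse embryonic fibroblasts (MEFs), cells grown from the bodies of embryos, were compared between genotypes and treatments by RNA-seq. All MEFs came from 13.5-day embryos of the FVB strain and were harvested at passage 3, from crosses of heterozygous or homozygous mice. The genotypes were wild-type and E2f1 3KR/3KR, a knock-in in which lysines of the transcription factor E2F1 that are acetylated are replaced by arginine. MEFs of each genotype were untreated or exposed to neocarzinostatin (NCS), a radiomimetic drug that breaks DNA, at 250 ng/ml for 3 h, and each of the 4 groups held 3 samples. The labels do not say whether a sample is a separate embryo or culture, so the p-values measure the spread between these samples, which may be technical.

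The cascade can start in several ways. In the classical pathway, C1q binds its target and activates the proteases C1r and C1s, which cleave C4 and C2. In the alternative pathway, factor B, the product of Cfb, takes the place of C2. Both routes end in the cleavage of C3, the fragments of which coat the target and recruit cells. The serpin encoded by Serping1, C1 inhibitor, blocks C1r and C1s, while Cd55 encodes decay-accelerating factor, a membrane protein that takes apart the enzymes that cleave C3.

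Each sample held 33203757 to 45279321 counted reads, and 15327 genes passed the filter on low counts and were tested. E2f1 itself had 1146 ± 133 normalized counts in untreated wild-type and 1121 ± 9.31 in untreated 3KR MEFs (SD, n = 3 each). A count of reads per gene cannot check a knock-in of changed codons. Replicate 3 of the wild-type MEFs stood apart in both treatments, since its pairs with the other wild-type replicates had a chi-square of 7.39 to 9.19 per gene, and all other pairs within a group 2.03 to 2.30. Wild-type samples had 32.3 to 62.5 and 3KR samples 30590 to 35630 normalized counts of Xist, and 5370 to 5822 and 7.001 to 16.2 of the Y-linked gene Ddx3y, so that sex and genotype cannot be told apart here. All 10 fibroblast markers were over 3 counts in every sample. Their sum in CPM, that is, counts scaled to a common library total, differed between genotypes. It was 57020 to 59310 in untreated wild-type and 61260 to 62990 in untreated 3KR MEFs, and 59270 to 61770 and 60680 to 62980 after NCS. By edgeR, 8 of the 10 were significantly higher and 2 lower in untreated 3KR MEFs, against 22.1% and 23.6% of all tested genes. After NCS 7 were higher and 2 lower, against 22.9% and 23.6%.

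Macrophages also make complement, and their markers were not equal between the genotypes either. The 12 macrophage markers, of which 4 (Itgam and the 3 C1q genes) are complement genes themselves, summed to 118.6 to 137.3 CPM in untreated wild-type and 231.7 to 234.4 CPM in untreated 3KR MEFs. After NCS the sums were 129.5 to 147.7 and 210.7 to 215.4 CPM. By edgeR, 12 of the 12 were significantly higher in untreated 3KR MEFs and 10 of the 12 in 3KR MEFs after NCS. Of all tested genes, 22.1% and 22.9% were higher. The defining markers Adgre1, Csf1r and Ptprc were above the floor of 3 counts in every sample, and Adgre1 had 109.5 ± 14.8 normalized counts in untreated wild-type and 327 ± 20.6 in untreated 3KR MEFs (SD, n = 3 each). The part of the fibroblast and macrophage markers in the differences between genotypes given here was not tested. Markers of hepatocytes, the main source of complement in the body, were at 0 to 0.585 CPM in sum, and none of the 7 passed the filter on low counts. In such bulk samples, fewer cells of a type and less RNA per cell cannot be told apart.

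The 3KR MEFs had more RNA of the classical pathway proteases, of C3 and of C4b than wild-type MEFs, in both treatments. C3 rose most, 4.99-fold without treatment and 4.82-fold after NCS. The inhibitors did not follow. Cd55 was slightly lower in 3KR MEFs and was raised by NCS in both genotypes, and Serping1, the member with the highest level per length in wild-type MEFs, differed little. Of the 8 genes, 7 could be tested and Cfb could not. Without treatment, 4 of the 7 were significantly higher and 1 lower in 3KR MEFs, among 45.7% of all tested genes that changed (22.1% higher and 23.6% lower). After NCS 4 were higher and 2 lower, against 46.5% (22.9% higher and 23.6% lower). The 3KR and wild-type samples did not overlap for 6 of the 7 without treatment (5 higher and 1 lower) and for 7 of the 7 after NCS (5 higher and 2 lower). Among all tested genes, 53.5% (27% higher and 26.6% lower) and 54.3% (27% and 27.3%) did not overlap. With so many genes apart between these genotypes, the counts of members are to be read against these shares. The members were chosen with earlier results of these data known, so a count above a share is a description and not a test. Without replicate 3 of both wild-type groups, C1ra, C1s1, C3 and C4b had log2 fold changes of 1.315, 1.02, 2.31 and 1.63 without treatment and 1.004, 0.70, 2.42 and 1.20 after NCS.

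**Figure D1:**
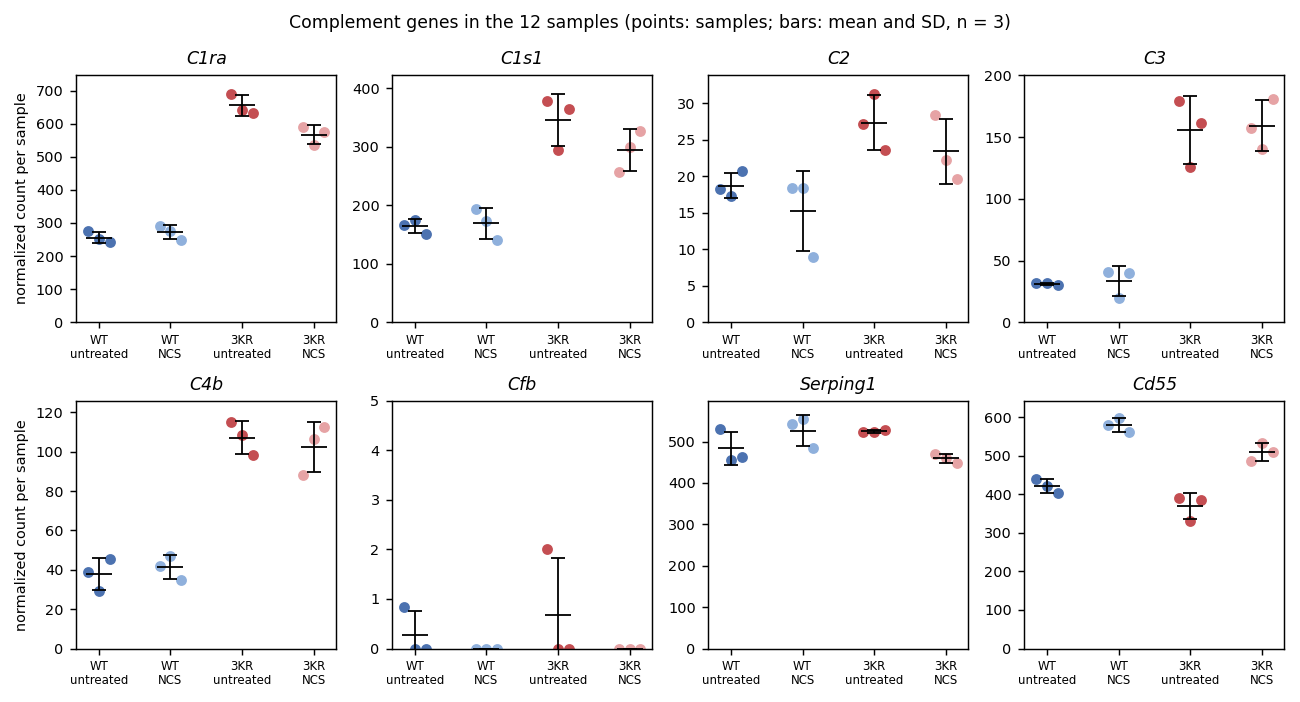
Normalized counts (counts divided by DESeq2 size factors) of the 8 complement genes, with 1 point per sample, bars at the mean and SD of 3 samples, and a y axis from 0 in every panel. C1ra, C1s1, C3 and C4b are higher in every 3KR sample than in every wild-type sample, Cd55 is higher in the NCS-treated samples of both genotypes, and Cfb is at or near 0 everywhere.

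C1ra and C1s1, which encode the mouse C1r and C1s proteases, lie next to each other on chromosome 6 of GRCm38, C1ra (ENSMUSG00000055172) on the plus strand at chr6:124512405-124523443 and C1s1 (ENSMUSG00000038521) on the minus strand at chr6:124530345-124542359. A near-identical copy of each, C1rb and C1s2, exists in the mouse, so reads that map to both copies could have been split or dropped. No identifier in the count tables could be matched to C1rb, while C1s2 had 224 reads in the 12 samples. The promoters of C1ra and C1s1, with that of C3, are shown because these are the members that were higher in 3KR MEFs for which RefSeq gave a sequence. Each is the 250 bases before a start site in the reference genome GRCm38.p6, 5′ to 3′ on the strand of the gene, and not read from these FVB cells. Capitals mark the only matches found among the motifs searched, both to the C/EBP motif TTGCNNAA. C1ra is chr6:124512371-124512620 on the plus strand, C1s1 chr6:124542360-124542609 on the minus strand and C3 chr17:57228137-57228386 on the minus strand. The start site used for C1ra lies downstream of the first base of the gene given above, chr6:124512405. Most of the C1ra window is therefore inside the annotated gene, and sequence before chr6:124512371 was not searched.
C1ra: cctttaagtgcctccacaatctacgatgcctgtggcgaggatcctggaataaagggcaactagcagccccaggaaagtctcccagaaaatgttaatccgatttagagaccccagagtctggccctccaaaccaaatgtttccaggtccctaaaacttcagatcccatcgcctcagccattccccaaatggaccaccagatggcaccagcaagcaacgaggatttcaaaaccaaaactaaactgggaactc
C1s1: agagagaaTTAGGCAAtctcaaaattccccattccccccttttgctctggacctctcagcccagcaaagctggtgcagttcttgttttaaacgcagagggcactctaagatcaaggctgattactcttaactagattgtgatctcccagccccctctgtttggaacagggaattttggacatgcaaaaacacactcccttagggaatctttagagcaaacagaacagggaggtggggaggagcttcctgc
C3: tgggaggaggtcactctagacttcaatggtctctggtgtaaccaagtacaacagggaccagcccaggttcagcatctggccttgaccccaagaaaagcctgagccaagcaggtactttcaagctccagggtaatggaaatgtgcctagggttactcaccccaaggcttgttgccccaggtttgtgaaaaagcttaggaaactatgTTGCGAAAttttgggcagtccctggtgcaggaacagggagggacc

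The match in the C1s1 promoter starts 242 bases before the start site and reads on the opposite strand, and that in the C3 promoter starts 45 bases before it. RefSeq gave another start site for C1s1, and its window, chr6:124542322-124542571, held no match to any motif searched. The same letters are found on either strand in 9.56% of 32851 mouse promoters of this length, and a match is a description and not a binding site. No match was found in these windows or in that of Cd55 for the E2F motifs TTTCCCGC, TTTGGCGC and TTTCGCGC (0.895%, 0.417% and 0.256% of promoters), the NF-kappaB motif (1.41%), the interferon-stimulated response element (2.98%), the GAS motif TTCNNNGAA (7.02%), the AP-1 motif TGANTCA (6.75%) or the CRE motif TGACGTCA (1.55%). Motifs were searched on both strands, and overlaps between motifs were allowed. Promoters of C2, C4b, Cfb and Serping1 are not shown.

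C1ra had 274, 251 and 242 normalized counts in the untreated wild-type samples and 690.3, 643 and 632 in the untreated 3KR samples. The lowest 3KR sample was well above the highest wild-type sample. This was a log2 fold change of 1.35 (standard error, SE, 0.08, edgeR FDR = 6.58e-13), or 2.54-fold. After NCS the wild-type samples had 291, 277 and 249.8 and the 3KR samples 589, 534 and 576, again without overlap. The difference was then 2.08-fold (log2 fold change 1.06, SE 0.08, edgeR FDR = 8.98e-11). Within 3KR MEFs, C1ra was lower after NCS (log2 fold change -0.205, SE 0.07, edgeR FDR = 0.0306), with every treated sample below every untreated one. This call was lost in 5 of 13 alternative analyses, and the edgeR or DESeq2 FDR over all 13 was 0.00662 to 0.141. Among these 5 were the fits without replicate 1 or 2 of the untreated 3KR samples (0.141 and 0.0532). The fits without replicate 2 or 3 of the NCS-treated ones (0.136 and 0.06) lost it too.

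C1s1 followed the same pattern at a lower count. Its untreated wild-type samples had 166.5, 175.5 and 151 normalized counts and its untreated 3KR samples 379, 294 and 364. The log2 fold change was 1.07 (SE 0.12, edgeR FDR = 1.25e-07), a 2.10-fold rise. After NCS, 193, 172 and 141 normalized counts in wild-type MEFs stood against 256, 299.9 and 328 in 3KR MEFs. The genotypes did not overlap here either, at 1.74-fold (log2 fold change 0.80, SE 0.13, edgeR FDR = 1.24e-05). NCS gave no significant change in wild-type MEFs (log2 fold change 0.03, edgeR FDR = 0.893) or in 3KR MEFs (-0.23, edgeR FDR = 0.137). The latter value passed the threshold without replicate 2 of the untreated 3KR samples, which was the lowest of that group (-0.33, edgeR FDR = 0.0437). It also passed with only the 6 samples compared (-0.235, edgeR FDR = 0.0397) and without replicate 3 of both wild-type groups (-0.235, edgeR FDR = 0.0462). An antisense gene without a read in these samples, Gm16567, covers 18.4% of the exon bases of C1s1.

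C4b encodes the C4 that C1s cleaves, and lies on the minus strand of chromosome 17 (ENSMUSG00000073418, chr17:34728380-34743882). It had 38.9, 29.4 and 45.5 normalized counts in untreated wild-type samples and 114.9, 108.2 and 98.2 in untreated 3KR samples. The lowest 3KR value exceeded the highest wild-type value more than the range within either group. The rise was 2.80-fold (log2 fold change 1.485, SE 0.18, edgeR FDR = 4.53e-07). After NCS the wild-type samples had 42.0, 47.0 and 34.8 and the 3KR samples 88.1, 106 and 113, a 2.46-fold difference (log2 fold change 1.30, SE 0.19, edgeR FDR = 3.53e-06). The near-identical gene C4a was tested as well, and its difference between genotypes did not pass the threshold in either treatment, but reads of the pair may have been split between them. NCS gave no significant change of C4b in wild-type MEFs (0.12, edgeR FDR = 0.742) or 3KR MEFs (-0.06, edgeR FDR = 0.81).

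C3 (ENSMUSG00000024164, chr17:57203970-57228136, minus strand) encodes the component on which the pathways converge. Without treatment it had 31.5, 31.4 and 30.0 normalized counts in wild-type and 179, 126 and 162 in 3KR samples. The wild-type samples lay close together and far below the lowest 3KR sample. The log2 fold change was 2.32 (SE 0.21, edgeR FDR = 1.87e-09). After NCS the counts were 41, 19.4 and 39.8 in wild-type MEFs and 157, 140 and 181 in 3KR MEFs, with a log2 fold change of 2.27 (SE 0.21, edgeR FDR = 3.08e-09). The NCS-treated wild-type sample at 19.4, replicate 2, was the lowest of the 12. NCS itself gave no significant change in wild-type MEFs (0.09, SE 0.26, edgeR FDR = 0.854) or 3KR MEFs (0.04, SE 0.16, edgeR FDR = 0.899).

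C2 and Cfb encode the related proteases of the classical and alternative C3 convertases and are neighbours on the minus strand of chromosome 17. C2 (ENSMUSG00000024371) lies at chr17:34862604-34898265 and Cfb (ENSMUSG00000090231) at chr17:34856374-34862518. C2 was low, with 18.2, 17.2 and 20.7 normalized counts in untreated wild-type and 27.2, 31.2 and 23.6 in untreated 3KR samples. After NCS it had 18.4, 18.4 and 8.96 in wild-type and 28.4, 22.2 and 19.6 in 3KR samples. In both treatments every 3KR sample was above every wild-type sample. The log2 fold changes, 0.535 without treatment (SE 0.31, edgeR FDR = 0.167) and 0.61 after NCS (SE 0.33, edgeR FDR = 0.139), nevertheless did not pass the test.

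Cfb had 3 reads in all 12 samples together, 2 in an untreated 3KR sample and 1 in an untreated wild-type sample, and was not tested. This is not evidence that Cfb was not transcribed. The annotation holds a gene that joins Cfb and C2 on the same strand, Gm20547, which shares 79.5% of the exon bases of Cfb and 42.8% of those of C2. Reads that fall on more than 1 gene may have been left out of the counts, and Gm20547 itself had 0 counts in the 12 samples. Zbtb12, on the opposite strand, shares 4.16% of the exon bases of C2 and had 3274 counts in the 12 samples, against 255 for C2. The strand setting of the counting is not known. The levels of C2 and Cfb are therefore uncertain.

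The inhibitors behaved differently from the components. Serping1 (ENSMUSG00000023224, chr2:84765387-84775444, minus strand) had 529, 456.5 and 464 normalized counts in untreated wild-type and 522, 523 and 528 in untreated 3KR samples. These groups overlapped, with a log2 fold change of 0.11 (SE 0.07, edgeR FDR = 0.232). After NCS the wild-type samples had 542, 553 and 484 and the 3KR samples 471, 459.7 and 449. The latter were lower (log2 fold change -0.20, SE 0.07, edgeR FDR = 0.0315). This call did not hold in 6 of 13 alternatives, and the edgeR or DESeq2 FDR over all 13 was 0.00523 to 0.135. Among these 6 were the fits without replicate 1 or 2 of the NCS-treated wild-type samples (0.0989 and 0.135) and without replicate 2 or 3 of the NCS-treated 3KR samples (0.0698 and 0.0987). The responses of Serping1 to NCS, 0.12 in wild-type MEFs (edgeR FDR = 0.258) and -0.19 in 3KR MEFs (edgeR FDR = 0.054), did not pass the test. The latter passed with the replicate number within each genotype as a block (edgeR FDR = 0.0353), with only the 6 samples compared (0.0209) and without replicate 3 of both wild-type groups (0.023).

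Cd55 (ENSMUSG00000026399, chr1:130439027-130462744, minus strand) was the member that changed with NCS in both genotypes. Its untreated and NCS-treated wild-type samples had 441, 422 and 404 and 579, 598 and 561 normalized counts. The treated samples were all higher, by a log2 fold change of 0.45 (SE 0.07, edgeR FDR = 3.98e-05), or 1.37-fold. In 3KR MEFs the counts were 391, 331 and 386 without treatment and 487, 532 and 509 after NCS, again without overlap and with a 1.38-fold rise (log2 fold change 0.46, SE 0.08, edgeR FDR = 4.08e-05). The rise was called in all 13 alternatives in each genotype. Cd55 was also lower in 3KR than in wild-type MEFs. Its log2 fold change was -0.20 without treatment (SE 0.08, edgeR FDR = 0.0347) and, after NCS, -0.19 (SE 0.07, edgeR FDR = 0.033). These small differences were each lost in 6 of 13 alternatives. Over all 13 the edgeR or DESeq2 FDR was 0.0214 to 0.212 without treatment and 0.0214 to 0.13 after NCS. Without treatment the fits that lost it included those without replicate 1 or 2 of the wild-type samples (0.136 and 0.0641) and without replicate 2 of the 3KR samples (0.212). After NCS they included those without replicate 1 or 2 of the wild-type samples and without replicate 1 or 3 of the 3KR samples. A near-identical gene, Cd55b, had 5 reads in the 12 samples.

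Cd55 was thus the 1 member of 7 that NCS changed in wild-type MEFs, against 26.7% of all tested genes (14.3% higher), and the only one without overlap, against 35.1% (18.6% higher). In 3KR MEFs 1 member, Cd55, rose and 1, C1ra, fell, against 30.8% of genes called (15.8% higher and 15% lower). Groups there did not overlap for 3 of the 7, Cd55 higher and C1ra and Serping1 lower, against 47.6% of genes (24% higher). The responses of the genotypes were then compared by an interaction term. The difference between them passed the threshold for 0 of the 7 members by edgeR and by the Wald test of DESeq2, while 3.73% of all tested genes were called (1.86% higher and 1.87% lower). At an unadjusted p under 0.05 there were 2, Serping1 and C1ra. For Serping1, the response in 3KR MEFs minus that in wild-type MEFs was -0.30 on the log2 scale (SE 0.10, edgeR FDR = 0.11). A block on the replicate number within each genotype gave -0.31 (edgeR FDR = 0.0475). It also passed without replicate 1 of the untreated wild-type samples (-0.38, edgeR FDR = 0.0452), without replicate 3 of the NCS-treated wild-type samples (-0.36, edgeR FDR = 0.0354) and without replicate 3 of both (-0.33, edgeR FDR = 0.0299). The difference for C1ra was -0.29 (SE 0.11, edgeR FDR = 0.176) and that for Cd55 was 0.01 (SE 0.10, edgeR FDR = 0.977).

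**Figure D2:**
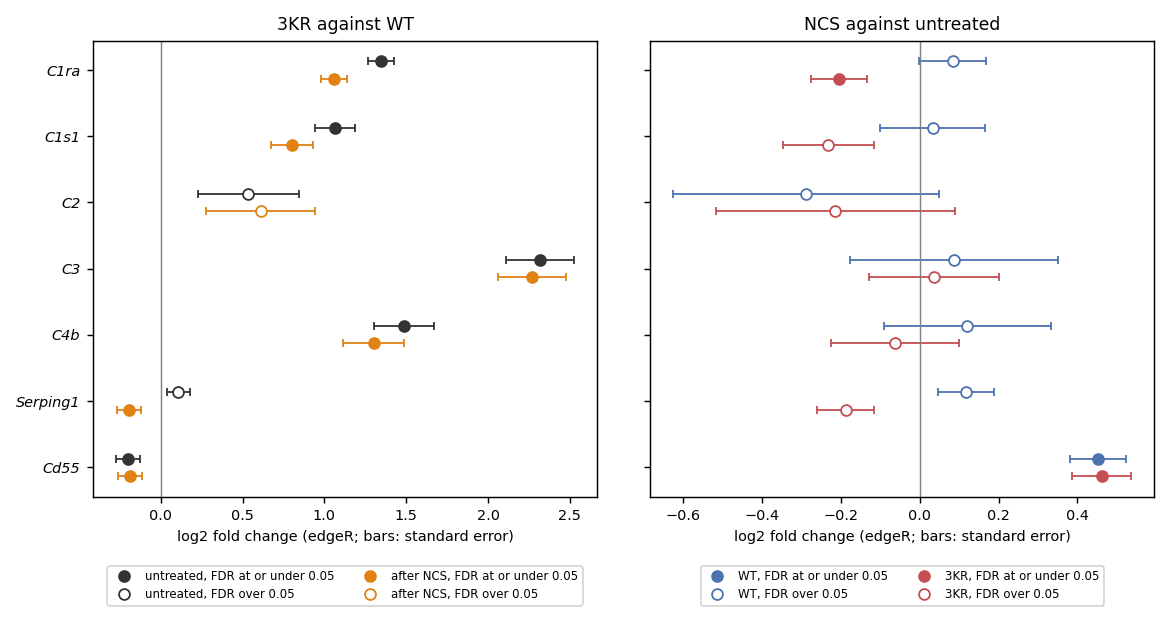
Log2 fold changes of the 7 tested members between genotypes (left) and between treatments (right), with bars for the standard error. Filled points passed an edgeR FDR of 0.05. C3 is furthest to the right between genotypes at 2.32 and 2.27, and Cd55 stands apart between treatments at 0.45 and 0.46.

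Levels of different genes were compared as CPM per kilobase of exon. In untreated wild-type MEFs the order was Serping1 at 5.46 ± 0.45 (SD, n = 3), Cd55 at 2.28 ± 0.10, C1ra at 2.25 ± 0.15, C1s1 at 1.38 ± 0.10, C4b at 0.175 ± 0.038, C3 at 0.158 ± 0.0042 and C2 at 0.127 ± 0.012. Cd55 could not be separated from C1ra, nor C4b from C3 or C2, because the ranges of their samples overlapped. This order depends on the length used. Per kilobase of the longest transcript, Cd55 was at 3.54 and C1ra at 2.25, and C2 at 0.186 was level with C4b at 0.185 and above C3 at 0.158. In untreated 3KR MEFs, C1ra reached 5.75 ± 0.27 and overlapped with Serping1 at 5.90 ± 0.038, and C1s1 at 2.89 ± 0.38 was above Cd55 at 1.99 ± 0.18. C3, at 0.791 ± 0.14, was above C4b at 0.492 ± 0.039, and C2 remained lowest of the 7 at 0.185 ± 0.026. Per kilobase of the longest transcript, Serping1 at 7.76 was above C1ra at 5.75, and Cd55 at 3.08 was level with C1s1 at 3.07. After NCS, Cd55 rose above C1ra in wild-type MEFs (3.13 ± 0.11 against 2.39 ± 0.19), and in 3KR MEFs it overlapped with C1s1 (2.75 ± 0.12 against 2.46 ± 0.30), though not by the longest transcript (4.26 against 2.62). The level of C2 is subject to the overlap with Gm20547.

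**Figure D3:**
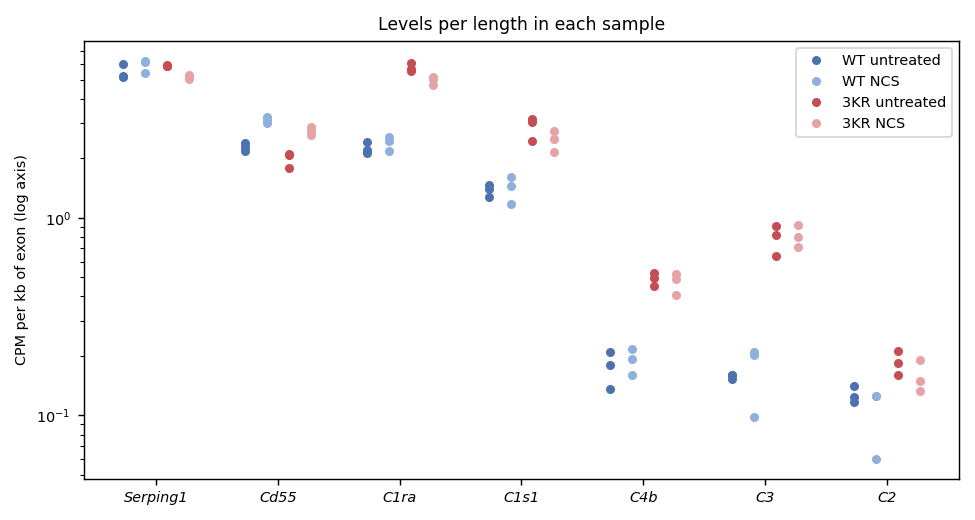
Levels of the 7 tested members in CPM per kilobase of exon on a log axis, with 1 point per sample and the genes in the order of untreated wild-type MEFs. On this scale C1ra lies beside Cd55 in untreated wild-type MEFs (2.25 and 2.28) and beside Serping1 in untreated 3KR MEFs (5.75 and 5.90), but beside neither per kilobase of the longest transcript (2.25 against 3.54 and 5.75 against 7.76).

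Over the 12 samples, C1ra was correlated with C1s1 (Pearson's r = 0.962), C3 (0.959) and C4b (0.965) on log2 CPM, as a description in which the points share their division into genotypes. Xist and Ddx3y divide the samples in the same way, so a partner by genotype cannot be told from a partner by sex. With each group's mean subtracted, the values were 0.491, 0.104 and 0.216. The components were then not set apart from the inhibitors. With Serping1 and Cd55 in turn, C1ra had 0.738 and 0.292, C1s1 0.288 and 0.731, C3 -0.34 and 0.07, and C4b 0.353 and 0.155. Without this subtraction, the genes most like a member were taken among genes with a mean log2 CPM of at least 1. For C1ra these were Lcp1 (0.996), Aspn (0.996) and 1500015O10Rik (0.996). For C1s1 they were Isg15 (0.975), Parp12 (0.975) and Dpt (0.973). For C3 they were Kdm6a (0.989), Emx2 (0.988) and Ifih1 (0.988), and for C4b Heph (0.990), Plod1 (0.985) and Colgalt1 (0.984). C2 was most like Lrr1 (0.949), Nagk (0.931) and Vrk2 (0.928). The inhibitors had other partners, Ephb6 (0.859), Zkscan6 (0.847) and Ssc5d (0.84) for Serping1, and Rap2b (0.974), Zfp365 (0.970) and Cd81 (0.967) for Cd55.

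Other genes of the cascade moved in both directions between the genotypes. Of 47 further complement genes listed, 46 were found and 28 were tested. C1rb was the gene not found. This list too was chosen with earlier results of these data known, so its counts beside the shares are a description. Without treatment, 13 were significantly higher and 6 lower in 3KR MEFs, against 22.1% higher and 23.6% lower among all tested genes. Their median log2 fold change was 0.25, against 0 for all tested genes. After NCS 10 were higher and 8 lower, against 22.9% and 23.6% of all tested genes, with a median of 0.19 against 0.004. The 6 tested receptors were higher in both treatments. Among them, C5ar1, the receptor of the C5a fragment, had 149, 133 and 151 normalized counts in untreated wild-type and 375, 319 and 328 in untreated 3KR samples, without overlap (log2 fold change 1.23, SE 0.10, edgeR FDR = 7.92e-10). Itgam and Itgb2, the subunits of complement receptor 3, which is found on myeloid cells, rose by 1.34 and 1.26 without treatment (edgeR FDR = 5.79e-11 and 1.16e-09). The C1q genes C1qa, C1qb and C1qc rose by 0.52, 0.42 and 0.585 without treatment (edgeR FDR = 3.18e-05, 0.000639 and 6.33e-06), and after NCS only C1qc passed the test (0.25, edgeR FDR = 0.0223). Itgam and the C1q genes belong to the macrophage markers described above. Cfp, which encodes properdin, a stabilizer of the alternative C3 convertase, rose by 0.71 and 0.68 (edgeR FDR = 7.08e-07 and 1.2e-06).

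Among regulators, 2 of the 5 soluble ones tested were lower and 1 higher in 3KR MEFs without treatment, and 4 of the 5 were lower after NCS. Of the 6 membrane regulators tested, 2 were lower without treatment, and after NCS 3 were lower and 1 higher. Of all tested genes, 23.6% were lower in each treatment, so in groups this small several of these counts are near that share. C4bp, which encodes the alpha chain of the C4b-binding protein, an inhibitor of the classical convertase, had 91.1, 88.3 and 61.1 normalized counts in untreated wild-type samples. In untreated 3KR samples it had 3.02, 9.36 and 4.55, close to the floor of 3 counts (log2 fold change -3.83, edgeR FDR = 8.34e-10), and it was lower after NCS too (-2.87, edgeR FDR = 1.47e-07). Clu, which encodes clusterin, Cd59a, which blocks the membrane attack complex, and Csmd1 were lower, at -0.375, -0.64 and -1.85 without treatment (edgeR FDR = 0.00055, 7.26e-10 and 2.38e-12). After NCS their values were -0.66, -0.67 and -2.10 (edgeR FDR = 5.1e-07, 4e-10 and 3.19e-13). Colec10 was lower in both treatments (-1.61 and -1.27, edgeR FDR = 2e-04 and 0.00648). C1rl (0.60), C1s2 (0.865) and Cpn2 (1.75) were higher, and Masp1 (-0.25) lower, without treatment (edgeR FDR = 0.000147, 0.044, 0.00324 and 0.000223). The value of Cpn2 rests on 2, 5 and 10 reads in the untreated wild-type samples, and was 1.26 without replicate 1 and 2.49 without replicate 3 of these. C5ar2 was higher in both treatments (1.88 and 1.98, edgeR FDR = 0.000482 and 0.0016), as were C3ar1 (0.55 and 0.51, edgeR FDR = 8.69e-05 and 0.000328) and Cd93 (0.81 and 0.49, edgeR FDR = 6.4e-06 and 0.0021). After NCS, C8g (0.575) and Cr1l (0.15) were higher and Cfi (-1.18), Vtn (-0.94) and Susd4 (-1.05) lower, with edgeR FDR of 0.0157 to 0.034. The calls of these 5 genes and of C1s2 and C1qc were each lost in 2 to 8 of the 12 or 13 alternatives, most often that of C1s2. Markers of Schwann cells and neural crest, of which 5 of 7 were significantly lower in 3KR MEFs in each treatment (36.42 to 43.27 CPM in sum against 200.8 to 211.4), move with these falls, and their part in them was not tested.

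**Figure D4:**
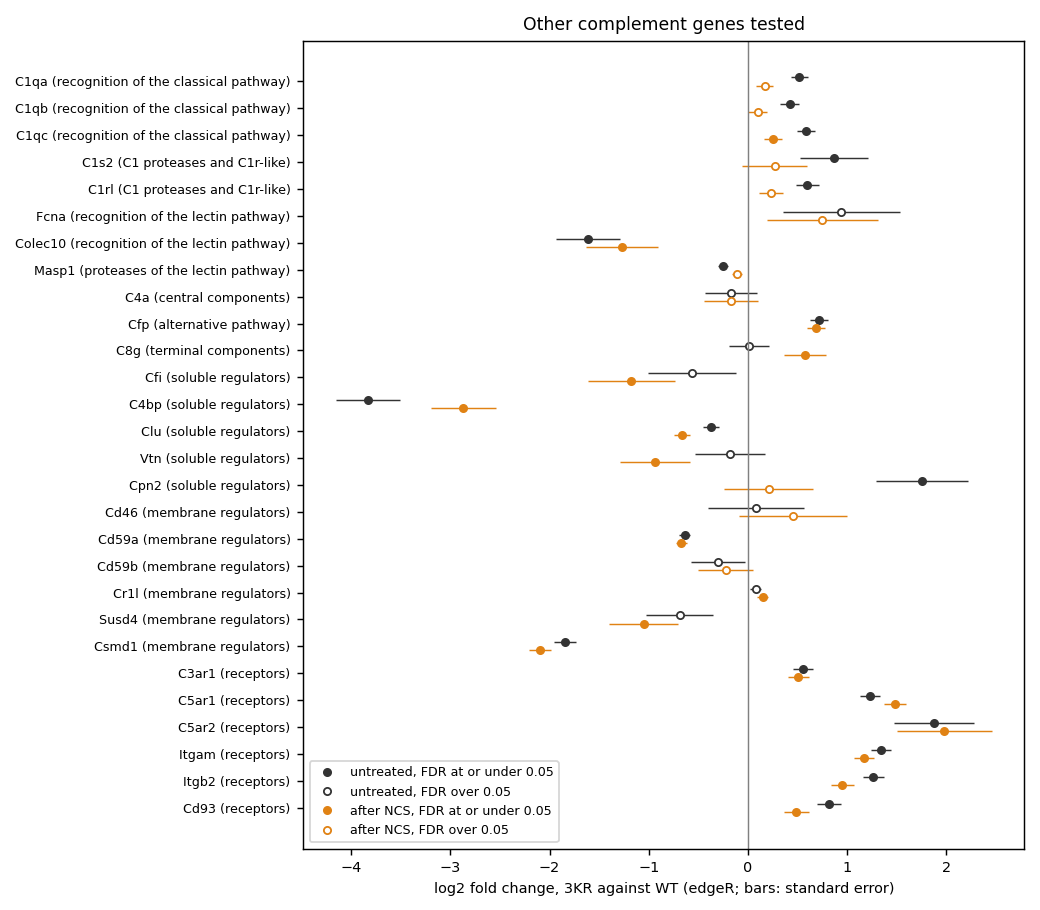
Log2 fold changes of 3KR against wild-type MEFs for the 28 other complement genes tested, with bars for the standard error and the role of each gene beside its name. Filled points passed an edgeR FDR of 0.05. The receptors lie right of 0, and C4bp at -3.83 and -2.87 lies furthest left.

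Of the 28, NCS changed 1 in wild-type MEFs and 2 in 3KR MEFs, against 26.7% and 30.8% of all tested genes. In wild-type MEFs C5ar1 fell (-0.34, edgeR FDR = 0.0381), and in 3KR MEFs Masp1 rose (0.23, edgeR FDR = 0.00123) and C1qb fell (-0.26, edgeR FDR = 0.0356). The calls of C5ar1 and C1qb were each lost in 6 of 13 alternatives, with an FDR of up to 0.19 without replicate 2 of the NCS-treated wild-type samples for C5ar1 and 0.17 without replicate 2 of the NCS-treated 3KR samples for C1qb. The 18 genes not tested were low, 5 of them (Mbl1, Fcnb, Cfd, C8a and Vsig4) without a read in the 12 samples, where 3 counts would be 0.0663 to 0.0904 CPM for counting error alone.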

How the data were processed

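MEFs of the FVB strain were profiled in 12 samples, with libraries made by a stranded mRNA kit. The authors deposited raw counts of reads per Ensembl gene identifier, 1 file per sample, neither normalized nor filtered. The submitters' processing notes name TopHat, HTSeq, DESeq and the build mm9. The versions, the annotation and the strand setting of the counting are not given in the sources used here. Symbols, positions, exon lengths and overlaps were read from the GRCm38 annotation of GENCODE (release M21), in which 32919 of the identifiers were found and 5072 were not, so positions are not those of mm9. Groups and replicate numbers came from the sample labels.

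Counts were filtered with filterByExpr, normalized by TMM and tested in R 4.3.3 with edgeR 4.0.16 (quasi-likelihood F test, two-sided) on all 12 samples, each of the 4 groups having 1 coefficient. FDR is the Benjamini-Hochberg adjusted p over all 15327 genes tested, with a threshold of 0.05, and the standard error (SE) is the log2 fold change divided by the square root of F. For normalized counts, the size factors came from DESeq2 1.42.0. Depth was 33203757 to 45279321 counts per sample, and limits at 3 counts cover counting error only.

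The members and the gene lists were chosen with earlier results of these data known. The rule for named genes takes every member, each further complement gene past the threshold in a comparison, the 3 genes most correlated with each member, E2f1, Xist, Ddx3y and the defining markers. C4a, Cd55b, C1rb, Gm16567, Gm20547 and Zbtb12 are named as copies of, or overlaps with, members, and 5 further complement genes for having no read. Alternatives were other normalizations, the Wald test of DESeq2, other filters on low counts (none, or at least 10 counts), only the 6 samples compared, the replicate number as a block, and each sample left out in turn. The block was the number alone for comparisons of genotypes, and the number within each genotype for the responses to NCS and their difference. Leaving out replicate 3 of both wild-type groups was chosen after seeing the data. Same-numbered untreated and NCS samples deviated together in wild-type MEFs, with correlations of 0.141, 0.136 and 0.325 across 11758 genes, and so pair by number, which entered the block alternative and not the tests reported. In 3KR MEFs they did not (-0.0091, 0.00644 and -0.091). The steps were tested on simulated data. Sequences are from RefSeq. One further complement gene is not reported here.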

Additional observations from a re-analysis of the deposited data

How the results depend on the processing

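The differences of C1ra, C1s1, C3 and C4b between genotypes and the rise of Cd55 after NCS kept their direction and their calls in 13 of 13 alternatives. Of 482 values of the members under alternatives, 425 kept direction and side of the threshold, 23 lost and 10 gained a call, and 24 changed sign, none of them of a called change. The cause of the changes was not tested. With the replicate number within each genotype as a block, members called for NCS in 3KR MEFs went from 2 to 3. For the difference of responses, members went from 0 to 1, all genes from 572 to 1379 and further complement genes from 0 to 1. Further complement genes called for NCS in wild-type MEFs went from 1 to 3. Without replicate 3 of both wild-type groups, the difference was called for 1842 genes and 1 member, NCS in 3KR MEFs for 4 members and NCS in wild-type MEFs for 3 further genes. Only the 6 samples compared gave 4 members for NCS in 3KR MEFs and 0 further genes for NCS in wild-type MEFs, and the Wald test of DESeq2 gave 1 and 0, with 1 further gene for NCS in 3KR MEFs (2 by edgeR). With no filter on low counts, NCS in wild-type MEFs was called for 2 further genes. With each sample left out, the counts ranged from 0 to 4 further genes for NCS in wild-type MEFs, 1 to 2 members and 1 to 2 further genes for NCS in 3KR MEFs, and 345 to 1159 genes, 0 to 1 members and 0 to 1 further genes for the difference. Some log2 fold changes changed sign when a sample was left out, and the ranges given are over these fits. For NCS in wild-type MEFs they were those of C1s1 (-0.071 to 0.142), C3 (-0.089 to 0.375) and C4b (-0.025 to 0.258). Over all alternatives this value of C4b reached 0.364. For NCS in 3KR MEFs they were those of C3 (-0.093 to 0.147) and C4b (-0.142 to 0.036). For the difference they were those of C2 (-0.193 to 0.239), C3 (-0.339 to 0.125) and Cd55 (-0.062 to 0.051). Without replicate 3 of both wild-type groups, NCS in wild-type MEFs gave 0.049 for C2 and -0.087 for C3, and the difference was -0.27 for C2 and 0.12 for C3. With 3 reads in the 12 samples Cfb allowed no fold, and the part of the overlap with Gm20547 in the low counts of Cfb and C2 was not tested.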
